A study of Homo sapiens with 9 samples.

Results

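RNA polymerase II (RNAPII) occupancy was followed over 10 genes of glycolysis in human embryonic kidney (HEK293) cells: TPI1, GAPDH, ENO1, PGK1, LDHA, LDHB, ALDOA, PKM, PGAM1 and GPI. The genes were selected on these data, because TPI1 lay under one of the peaks with the highest significance score upon RECQL5 knockdown with shRNA7, and the other 9 encode enzymes of the same pathway or of the lactate step that follows it. A peak belonged to a gene when it overlapped the gene's GENCODE span on GRCh37, widened by 500 bp on each side, by at least 1 bp. The 10 genes stand among 20163 protein-coding genes, and they held 20 of 5287 peaks in the control list, 30 of 23698 for shRNA5, 16 of 32124 for shRNA7, and 68 of 47060 without and 53 of 33900 with doxycycline.

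The study asked how RNAPII is distributed over genes when the cell has less or more RECQL5, a helicase of the RecQ family that associates with RNAPII. In 3 RNAPII libraries HEK293 cells had received a lentivirus, either the empty pLKO.1 vector (control shRNA) or 1 of 2 RECQL5 hairpins, shRNA5 or shRNA7. The remaining 2 RNAPII libraries came from HEK293 T-REx cells, which carried full-length RECQL5 on a plasmid that doxycycline switches on, grown with 0.0 or 1.0 ng/ml of the drug. Both doxycycline libraries therefore carried the transgene, and it adds to the endogenous gene. The labels name 4 IgG libraries as background, and every group had 1 library, 9 in all. No test between conditions was possible, so every difference below is between single libraries. RECQL5 protein was not measured by these files.

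Each peak carried its number of sequenced tags, a raw count. Tags in peaks came to 842310 in the control list, against 3778665 upon shRNA5 and 6698771 with shRNA7, and 1449163 without and 1539844 with doxycycline. Per kb of peak, these were 59.3, 59.6, 63.9, 34.5 and 45.7 tags in the same order, so peak density in the control list was close to that upon shRNA5. Library totals are not part of the peak lists, and a tag outside a called peak was not seen. The lists of the hairpin arm analysed here are shorter than the peak numbers in the study's methods, and the control list is shorter by the largest factor if the wild-type cells named there are its source. A gene or start without a control peak is therefore one without a peak in the list analysed here, and control sums may lack peaks that were called. Folds are read beside the median fold of all genes, which share this limit. No fold was taken between the hairpin and doxycycline arms, and values of all 5 lists set side by side are a description.

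Glycolysis splits glucose into pyruvate in a chain of enzyme steps that yields ATP and NADH, and lactate dehydrogenase turns pyruvate into lactate, which restores NAD+. The genes of the later steps are among the most heavily transcribed in many dividing cells. Several of them are known targets of hypoxia-inducible factor, which reads ACGTG, and of MYC, which reads the E-box CACGTG.

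The 200 bases before the start of the reference transcript (the MANE Select transcript) are shown for 5 genes, read from GRCh37 and printed 5′ to 3′ on the coding strand. TPI1 is shown because its peak chose the group, and ENO1, LDHA, PGAM1 and GPI because no control peak reached their start. Capitals mark ACGTG on either strand.
TPI1 (chr12:6976495-6976694, + strand): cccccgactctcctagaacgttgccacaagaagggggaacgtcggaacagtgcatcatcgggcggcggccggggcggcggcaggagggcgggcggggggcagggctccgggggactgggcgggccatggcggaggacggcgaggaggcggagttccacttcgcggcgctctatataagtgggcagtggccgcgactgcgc
ENO1 (chr1:8938746-8938945, − strand): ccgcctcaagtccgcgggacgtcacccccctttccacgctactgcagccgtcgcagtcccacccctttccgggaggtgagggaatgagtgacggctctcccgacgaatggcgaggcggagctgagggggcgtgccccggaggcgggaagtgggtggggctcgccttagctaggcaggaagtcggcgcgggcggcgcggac
LDHA (chr11:18415910-18416109, + strand): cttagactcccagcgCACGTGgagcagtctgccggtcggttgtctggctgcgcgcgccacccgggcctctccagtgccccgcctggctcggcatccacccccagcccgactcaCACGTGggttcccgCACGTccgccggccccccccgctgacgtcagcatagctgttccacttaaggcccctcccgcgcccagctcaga
PGAM1 (chr10:99185748-99185947, + strand): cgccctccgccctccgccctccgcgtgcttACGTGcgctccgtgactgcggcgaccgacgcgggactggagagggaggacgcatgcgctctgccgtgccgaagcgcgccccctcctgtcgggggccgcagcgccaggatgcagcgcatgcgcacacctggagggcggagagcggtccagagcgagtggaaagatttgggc
GPI (chr19:34855901-34856100, + strand): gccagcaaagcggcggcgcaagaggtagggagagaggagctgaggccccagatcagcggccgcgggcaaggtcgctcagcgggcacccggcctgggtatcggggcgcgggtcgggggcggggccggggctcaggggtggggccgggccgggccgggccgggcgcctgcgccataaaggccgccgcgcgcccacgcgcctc

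LDHA, the muscle form of lactate dehydrogenase, held 5 matches read on both strands, at −185, −184, −87, −86 and −73 from the start, the first 4 of them being both strands of 2 E-boxes. PGK1 had 1 match at −183, ALDOA 1 at −198 and PGAM1 1 at −170. TPI1, ENO1, LDHB, PKM and GPI had none in these 200 bases, which says only that these letters are not there. Over the 300 bases from 250 before to 50 after the reference start, ACGTG (both strands) was found in 5 of 10 genes, beside 23.2% of the same windows of all 20163 protein-coding genes. CACGTG, which contains ACGTG, was found in LDHA alone, beside 8.71%. GGGCGG, the GC box (both strands), was found in 8 of 10, beside 60.9%. CCAAT (both strands) was found in 4 of 10, beside 35.9%, and TATAAA (coding strand) in 2 of 10, beside 7.13%. G and C made up a median of 70.3% of these windows, with a range of 59% in LDHB to 76.7% in GPI, beside a median of 63.3% over all genes.

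In the RefSeq promoter table (GRCh38.p14), whose windows also run over 300 bases, the bases were the same for TPI1, ENO1, PGK1, LDHA, LDHB and PKM. For GAPDH, ALDOA, PGAM1 and GPI the table takes another start. With the table's windows ACGTG was found in 5 of 10 genes (21.6% of 27305 promoters), CACGTG in 2 (7.43%), GGGCGG in 7 (44.6%), CCAAT in 3 (35.7%) and TATAAA in 1 (7.71%). LDHA, whose bases were the same in both, held both ACGTG and CACGTG. A match is a description of letters and not a bound site.

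All 10 genes had a peak in each of the 5 lists. Over all protein-coding genes a peak was found for 22.7% in the control list, against 52.6% upon shRNA5 and 60.6% with shRNA7, and 64.2% without and 53.7% with doxycycline. Because the genes were chosen with these lists in view, the counts describe the group. How high RNAPII stood on each gene was compared as tags in peaks per kb of the reference transcript, where a peak that reaches outside it adds its tags in proportion to the length inside. The median of this level was taken over genes with a peak on the reference transcript or within 500 bp of it. It was 2.92 in the control list, against 4.78 upon shRNA5 and 8.09 with shRNA7, and 1.3 without and 1.46 with doxycycline.

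GAPDH, glyceraldehyde-3-phosphate dehydrogenase, had the highest level of the 10 in every list. It stood at 82.6 tags per kb of transcript in the control list, against 123 upon shRNA5 and 179 with shRNA7, and 118 without and 95.6 with doxycycline. Among all protein-coding genes these values ranked 124, 133, 103, 43 and 104. TPI1, triosephosphate isomerase, followed at 70.3 in the control list and 156 upon shRNA7, and was behind ENO1 in the other 3 lists. The control order ran on with PKM (40.6), ALDOA (25.8), LDHB (22.7), PGAM1 (19.2), GPI (14.7), LDHA (8.11), PGK1 (3.89) and ENO1 (2.98). ENO1, the ubiquitous enolase, thus came last of 10 in the control list. In the other lists it ranked 2 or 3 of the 10, at 103 upon shRNA5 and 146 with shRNA7, and 75.9 without and 81.4 with doxycycline. The lowest level was that of GPI upon shRNA5 (12.7) and upon shRNA7 (6.26), and that of PGK1 without doxycycline (3.42) and with it (5.48). With 1 library per group the spread around these levels is unknown, so the order is that of these libraries alone.

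**Figure D1:**
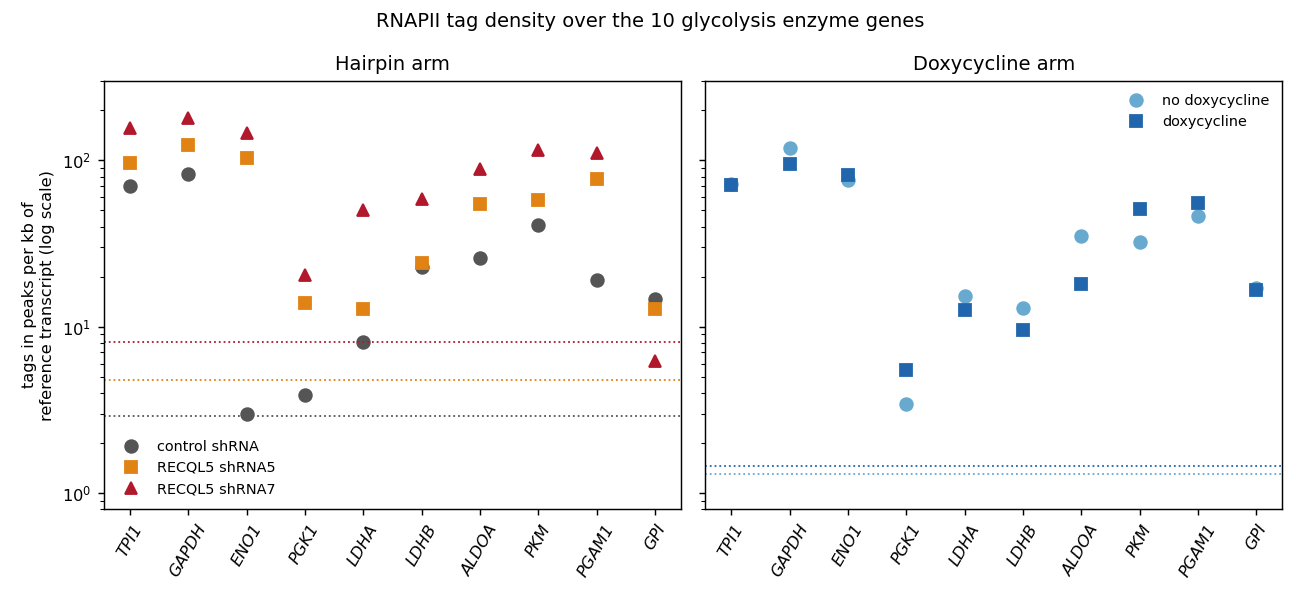
Tags in peaks per kb of the reference transcript (log scale) for each of the 10 genes, in the hairpin arm (left) and the doxycycline arm (right). Each point is 1 library, and dotted lines give the median over genes with a peak on or within 500 bp of the reference transcript in that library's list. ENO1 sits at 2.98 in the control list and at 103 and 146 upon shRNA5 and shRNA7, and GPI is the only gene whose shRNA7 point (6.26) lies below its control point (14.7).

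A peak within 500 bp of the transcription start site (TSS) of the reference transcript was found for 6 of 10 genes in the control list, where 16.0% of all genes had one. Upon shRNA5 it was found for 10 of 10 (42.0% of all genes), upon shRNA7 for 9 (50.1%), and for 10 of 10 both without (54.3%) and with doxycycline (45.8%). TPI1, GAPDH, PGK1, LDHB, ALDOA and PKM had such a peak in all 5 lists, beside 14.5% of all genes. ENO1, LDHA and PGAM1 had it in the other 4 lists and not in the control list, a pattern shown by 21.0% of all genes. GPI lacked it in the control list and with shRNA7. Within 1 kb of the TSS, 7 genes had a control peak, LDHA being added. Among the 4 genes without a control TSS peak, 4 had one upon shRNA5 and 3 upon shRNA7. Over all genes without a control TSS peak the shares were 31.1% and 42.0%. These counts rest on the short control list, and the part of its length in them was not tested.

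A peak within 500 bp of the transcript end was found for 8 of 10 genes in the control list, beside 8.28% of all genes. Upon shRNA5 all 10 genes had one (24.1%), and upon shRNA7 9 did (34.1%). In the doxycycline arm the counts were 9 without the drug (18.4%) and 8 with it (14.3%). In the control list, 3 of the 10 genes, ENO1, LDHA and PGAM1, had a peak at the transcript end and none at the TSS, which 3.78% of all genes showed. The end peaks reached past the annotated end by a median of 2216 bp in the control list (8 genes, range 468 to 5072 bp). The medians were 3288 bp upon shRNA5 (range 899 to 5923 bp) and 4398 bp upon shRNA7 (1433 to 20178 bp). They were 1141 bp without doxycycline (363 to 9456 bp) and 1498 bp with it (260 to 4791 bp). Some of these peaks also covered the start of a neighbouring gene, as did the ALDOA peak that reached 20178 bp. The reach over all genes is not given here.

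Peaks covered at least 50% of the gene span for 4 of 10 genes in the control list (TPI1, GAPDH, ALDOA and PKM), beside 2.61% of all genes. They did so for 6 genes upon shRNA5 (8.55%) and 7 upon shRNA7 (14.3%). In the doxycycline arm they did so for 7 genes without the drug (5.20%) and 6 with it (4.13%). The spans of PGK1, LDHB and GPI are drawn out by long alternative transcripts, to 219, 123 and 42.9 kb, against reference transcripts of 25, 22.5 and 37.2 kb. Coverage of the reference transcript is therefore the more even measure across the 10 genes.

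**Figure D2:**
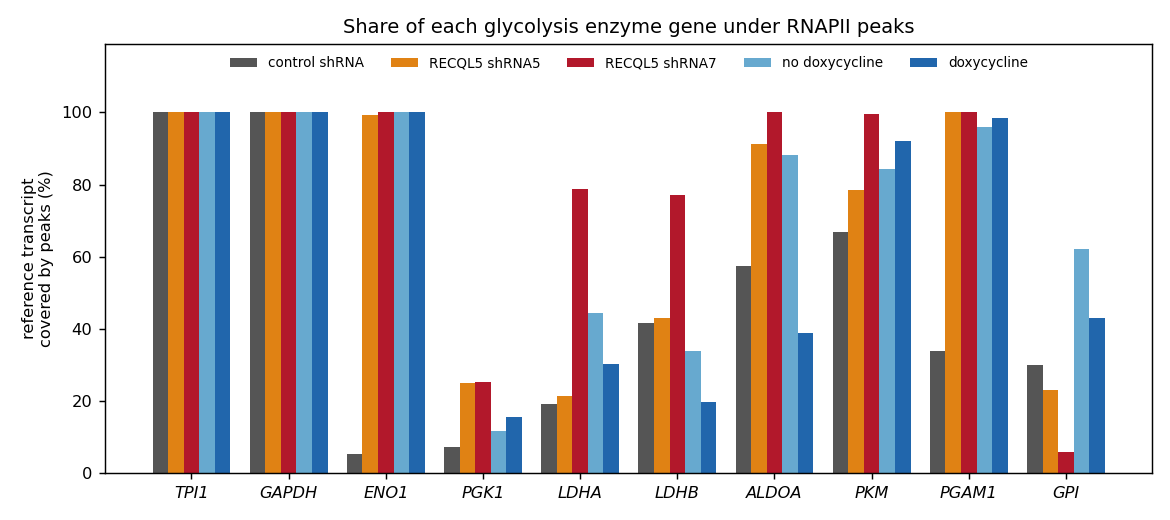
Percentage of each gene's reference transcript that lay under RNAPII peaks, with 1 bar per library. TPI1 and GAPDH are fully covered in all 5 lists, ENO1 rises from 5.32% in the control list to between 99.4% and 100% in the others, and GPI falls from 29.9% to 5.87% upon shRNA7.

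The first enzyme among the 10 in pathway order is GPI, glucose-6-phosphate isomerase (chr19:34850385-34893318, + strand). In the control list GPI had 2 peaks inside the gene, with 161 tags around 6200 bp and 385 tags around 20241 bp from the start, and none at either end. Upon shRNA5 there were 4 peaks. One lay at the TSS with 111 tags and its summit at 48 bp, one followed it with 340 tags, and one at the transcript end held 350. The fourth, with 480 tags, lay upstream with its summit at −6096 bp from the start, and it also overlapped the end of GARRE1. Both doxycycline lists had a peak near that summit that did not reach GARRE1. Upon shRNA7 a single peak of 556 tags was left, at the transcript end, and it also covered the start of the next gene, PDCD2L, as did the end peak upon shRNA5. Of the 8461 genes with a TSS peak upon shRNA5, 6.24% had none upon shRNA7, and GPI was the 1 such gene of the 10. The doxycycline arm gave 22 short peaks on the transcript without the drug and 15 with it. They held 666 and 663 tags and covered 62.2% and 42.9% of the transcript. With the peaks further upstream, the sums were 705 and 698 tags. An unnamed gene model (ENSG00000266953) overlaps the end of GPI on the same strand.

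ALDOA, the muscle and ubiquitous aldolase, splits fructose 1,6-bisphosphate into triose phosphates (chr16:30075485-30081778, + strand). Its control list showed a TSS peak of 134 tags, a gene-body peak of 53 and an end peak of 56. Upon shRNA5 the TSS peak held 252 tags and the end peak 290. Upon shRNA7 everything lay under 1 peak of 30809 bp with 2729 tags, which ran on over the start of PPP4C and into TBX6, and only a part of its tags belongs to ALDOA. Tags per kb of transcript, with each peak's tags spread evenly over its length, were 25.8 in the control list, 54.5 for shRNA5 and 88.6 for shRNA7. The last value is thus the mean of the whole peak, its parts over PPP4C and TBX6 included. Control and shRNA7 differed 3.43-fold by this measure, where the whole-peak sum gave 11.2-fold. Without doxycycline ALDOA held 312 tags in 5 peaks, and with it 205 in 3. The TSS peak held 153 and 158 tags, so the lower sum lay in the gene body and past the end, where a peak of 58 tags without the drug had no counterpart. A gene model without a symbol (ENSG00000285043) spans ALDOA on the same strand.

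TPI1 interconverts the triose phosphates (chr12:6976283-6980112, + strand). A single peak covered the whole transcript in each list, joined by a small upstream peak of 13 tags without doxycycline. The main peak held 546 tags over 7769 bp in the control list, 862 over 8918 bp upon shRNA5 and 1606 over 10319 bp upon shRNA7. It had 957 tags over 13341 bp without doxycycline and 500 over 7032 bp with it. Its summit always lay 28 to 70 bp past the TSS. Upon shRNA7 this peak had the third highest significance score of its list (3208) but ranked 431 by tags. This score brought TPI1 into the group and is given as a description. In all 5 lists the peak also covered the start of SPSB2, which runs toward TPI1 from the other strand, and ChIP reads do not tell the strand of transcription, so RNAPII past the end of TPI1 and RNAPII at the start of SPSB2 cannot be told apart.

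GAPDH oxidises glyceraldehyde 3-phosphate and yields NADH (chr12:6643678-6647540, + strand). It lay under 1 peak in each list, with 716 tags in the control list, against 1052 upon shRNA5 and 2630 with shRNA7, and 881 without and 783 with doxycycline. The highest point of the peak differed in position between lists. The summit was 3987 bp from the TSS in the control list and 4027 bp upon shRNA7, just past the transcript end at 3855 bp. In the other 3 lists it was at 13, 32 and 42 bp from the TSS. A summit is 1 position in a broad peak, and tags at its other positions are not listed. The peak entered IFFO1 past the end of GAPDH in all 5 lists and touched the end of NCAPD2 in all but the list without doxycycline, without reaching the start of either.

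PGK1, phosphoglycerate kinase, is the first enzyme of the pathway to make ATP (chrX:77166236-77384792, + strand). At its TSS it had a peak in every list, of 85 tags in the control list, against 230 upon shRNA5 and 625 with shRNA7, and 67 without and 64 with doxycycline. A peak at the transcript end, which also entered TAF9B, held 249 tags in the control list and 259 upon shRNA5. Upon shRNA7 there was none, while the TSS peak then reached 6337 bp into the gene. Without doxycycline the end peak had 16 tags, and with it there was none. The sum over the widened span also takes in 264 tags upon shRNA5 and 22 without doxycycline from a peak at the start of ATP7A, which lies inside the long PGK1 span.

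PGAM1, phosphoglycerate mutase (chr10:99185948-99193201, + strand), had 103 and 204 tags in 2 control peaks, the second at the transcript end with its summit at 7435 bp. Upon shRNA5 a single peak of 913 tags and upon shRNA7 one of 1382 tags covered the whole gene. Their summits lay at 8161 and 7405 bp, past the transcript end at 7254 bp and not at the TSS. Without doxycycline the TSS peak held 201 tags and the end peak 281. With doxycycline the corresponding peaks held 186 and 315 tags. In the control list and upon both RECQL5 hairpins the end peak reached into EXOSC1, which runs toward PGAM1. In every list with a TSS peak on PGAM1, that peak also overlapped the 5′ edge of the RRP12 span on the other strand. It did not cover the reference start of RRP12. RNAPII of RRP12 and of PGAM1 cannot be told apart there.

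ENO1 converts 2-phosphoglycerate to phosphoenolpyruvate (chr1:8921059-8939249, − strand). Its control list held a single peak of 337 tags at the transcript end, from 16746 to 22758 bp past the TSS, and nothing over the rest of the gene. Upon shRNA5 a peak of 662 tags lay at the same end and a second of 1854 tags covered the gene from the TSS on. Upon shRNA7 both were 1 peak of 3953 tags over 27009 bp. In the doxycycline arm 1 peak covered the gene in each list, with 1760 tags without the drug and 1907 with it. By tags these were the 9th strongest of 47060 peaks and the 11th strongest of 33900. The summit lay 58 to 147 bp past the TSS in the 4 lists with a TSS peak. At the end of the gene alone, the control and shRNA5 peaks had 56 and 91.7 tags per kb of peak. No other protein-coding span was overlapped by the ENO1 peaks.

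PKM, the pyruvate kinase of most tissues (chr15:72491370-72524160, − strand), had the most tags of the 10 in the control list and upon shRNA7. Its sum was 1468 in the control list, against 2121 upon shRNA5 and 4246 with shRNA7, and 1124 without and 1818 with doxycycline. RNAPII lay at both ends of the gene in the control list, with 481 and 381 tags in adjoining peaks over the first 11825 bp and 606 from 22461 bp to past the end. The stretch between them was free of peaks in the control list and carried 61 to 77 tags a peak upon shRNA5. Upon shRNA7 the peaks on either side reached to 12997 bp and began at 16492 bp, a peak of 151 tags lay between them, and 99.7% of the transcript was covered. In 4 of 5 lists the end peak also covered the start of GRAMD2A, the next gene on the same strand.

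LDHA (chr11:18416107-18429972, + strand) had the lowest sum of tags in the control list. There, it had 60 tags in a peak around 1998 bp from the start and 74 at the transcript end. Upon shRNA5 the corresponding peaks held 99 and 95 tags, and a peak of 77 tags appeared at the TSS. Upon shRNA7 a peak of 650 tags ran from the TSS over 9743 bp, and the end peak held 226. Without doxycycline the TSS peak held 175 tags, and with it the same stretch was split into peaks of 77 and 67. LDHB, the heart form (chr12:21788276-21910791, − strand), had its strongest peak at the TSS in every list, of 298, 267, 1037, 185 and 177 tags by the order of the lists above. Its end was free of peaks in the control list and in both doxycycline lists, and held 89 tags upon shRNA5 and 426 upon shRNA7. A gene model without a symbol (ENSG00000285854) starts beside LDHB on the same strand.

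**Figure D3:**
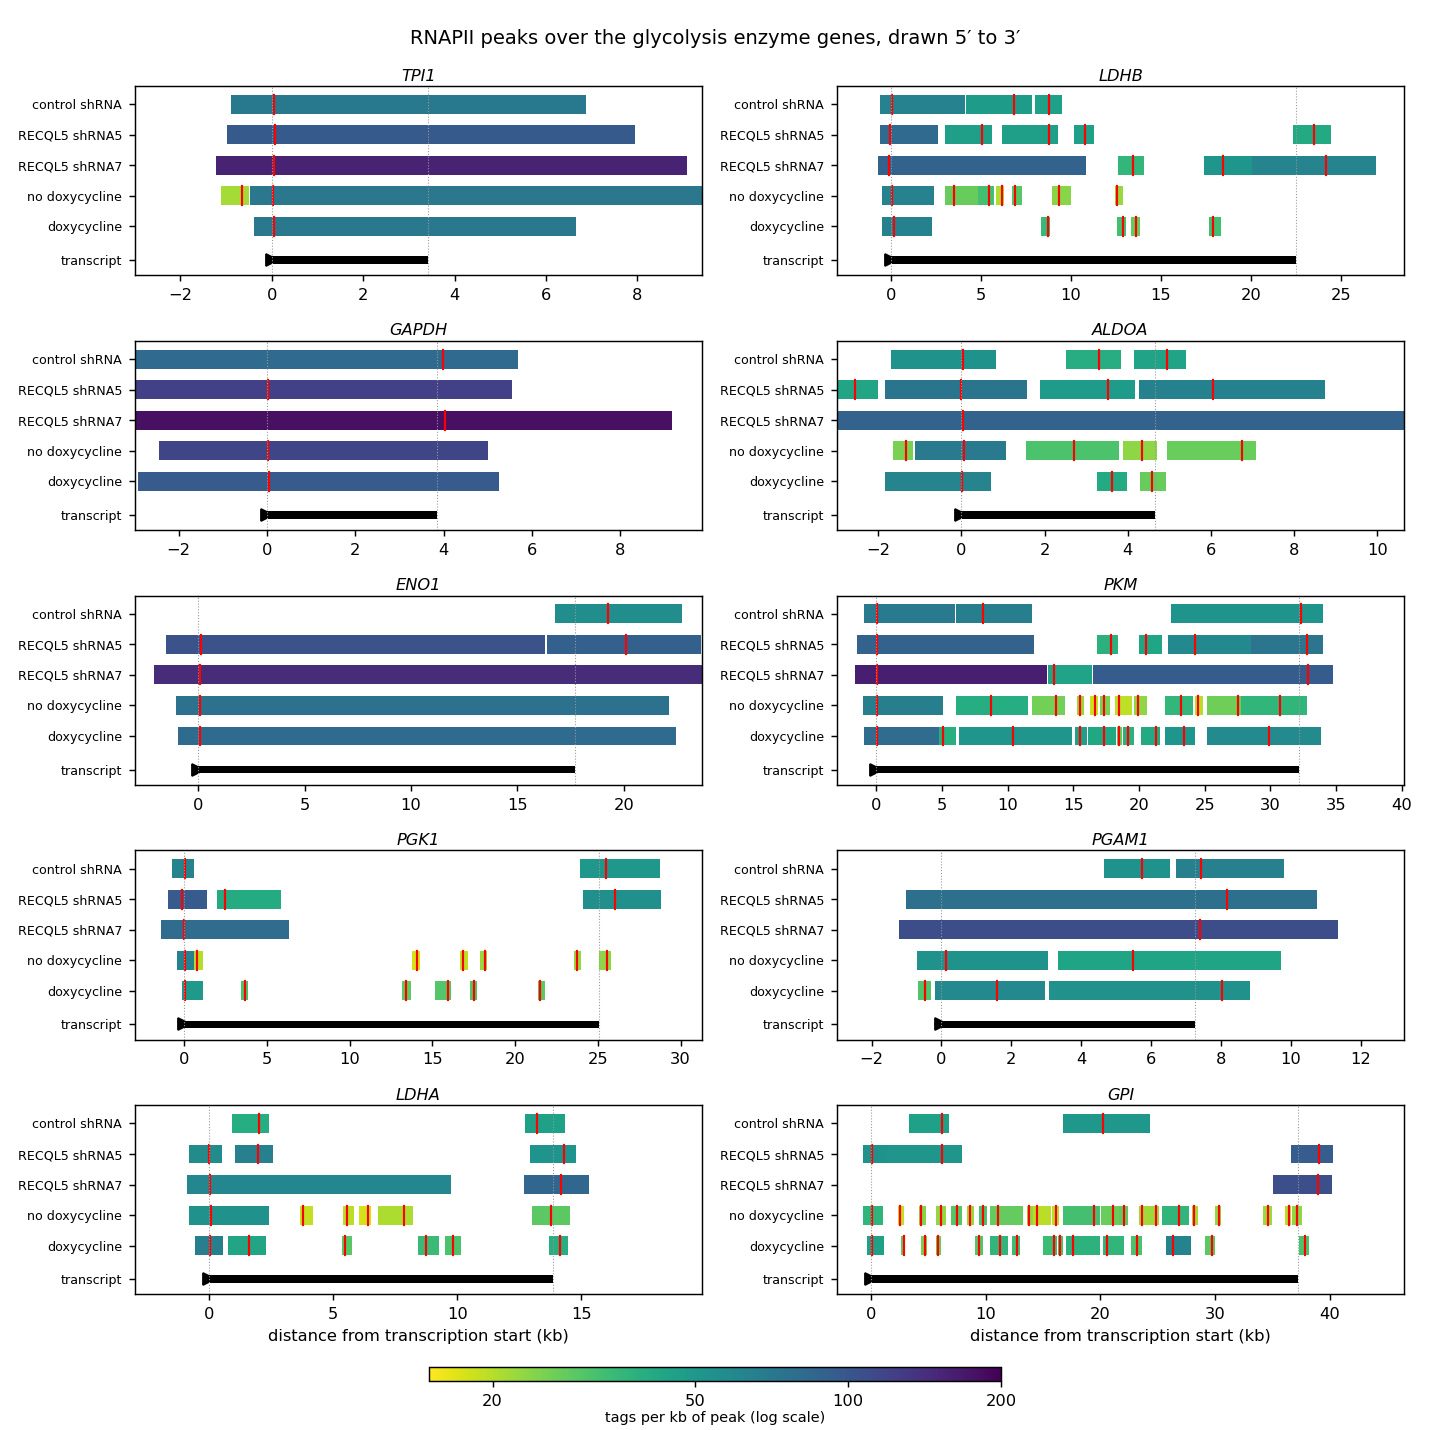
RNAPII peaks over each gene in the 5 lists, drawn from 5′ to 3′ against the distance from the transcription start in kb, with the reference transcript as a black bar. Bars are peaks coloured by tags per kb of peak (log scale) and red lines are summits, and peaks that run off a panel are cut at its edge. ENO1, LDHA, PGAM1 and GPI have no control peak at the start, and GPI upon shRNA7 has a peak at the transcript end only.

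Tags summed over the peaks of each gene were higher upon shRNA5 than in the control list for all 10 genes, as for 4501 of 4552 genes with a peak in both lists. The fold had a median of 2.18 over the 10 genes and 3.23 over all genes. It was largest for ENO1 at 7.47 (95% exact counting interval 6.66 to 8.39) and smallest for LDHB at 1.23 (1.1 to 1.38). Control tags on ENO1 outside its end peak are in no peak of the list analysed here, and whether a peak was called there is not known. TPI1 stood at 1.58, GAPDH at 1.47 and PKM at 1.44. A fold of at least 2 was found for 6 of 10 genes (ENO1, PGK1, LDHA, ALDOA, PGAM1 and GPI), beside 78.8% of all genes. For GPI the fold was 2.35 with the upstream peak and 1.47 without it, and the end peak over the start of PDCD2L is still counted in 1.47. Per kb of transcript GPI stood at 14.7 in the control list and 12.7 upon shRNA5, a fold of 0.867. For PGK1 the fold of the sums was 2.73 with the peak at the start of ATP7A and 1.94 without it. On the reference transcript 4 genes reached 2-fold, namely ENO1, LDHA, ALDOA and PGAM1. Counting error alone sets these intervals, and the spread between cultures is not known.

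Upon shRNA7 the sums were again all above the control list, as for 4350 of 4384 genes with a peak in both lists. The median fold was 3.35 over the 10 genes, beside 6.64 over the 4384. A fold of at least 2 was found for 8 of 10 genes, beside 95.7% of all genes, and the others were PGK1 at 1.87 (1.64 to 2.14) and GPI. The control sum of PGK1 takes in 249 tags at the transcript end, where there was no peak upon shRNA7. Its TSS peak held 85 tags in the control list and 625 upon shRNA7, and per kb of transcript its fold was 5.27. For GPI the sums of 546 and 556 tags lay in separate regions, inside the gene in the control list and at the transcript end and the start of PDCD2L upon shRNA7, so their ratio of 1.02 is not a change at any place on GPI. ENO1 stood at 11.7 (10.5 to 13.1), ALDOA at 11.2 with the tags over PPP4C included, LDHA at 6.54 and PGAM1 at 4.5. GAPDH stood at 3.67, LDHB at 3.02, TPI1 at 2.94 and PKM at 2.89. All but ENO1 and ALDOA, 8 of 10 genes, were below the median of all genes.

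The order against all genes depended on whether tags were summed or set against the length of the peaks. Per kb of peak, the median fold of the 10 genes was 1.31 upon shRNA5 beside 1.25 over all genes, and 1.9 upon shRNA7 beside 1.41. By this measure no gene reached 2-fold upon shRNA5, where ENO1 was highest at 1.8 and LDHB was at 0.997. Upon shRNA7, ENO1 did so at 2.61, TPI1 at 2.21 and GAPDH at 2.17. GPI also had a ratio of 2.17, but between peaks in separate regions. The ratios of ENO1 compare unlike regions too, its control peak at the transcript end with hairpin peaks over the whole gene. At that end alone, the control and shRNA5 peaks of ENO1 had 56 and 91.7 tags per kb, and the shRNA7 peak cannot be split. Peaks of TPI1 and GAPDH already spanned the gene in the control list, so their sums could grow only by density or by reach beyond the gene. Per kb of the reference transcript, the folds of the 10 genes upon shRNA7 ranged from 0.427 in GPI to 49.1 in ENO1, with a median of 3.15 beside 6.47 over all genes. With peaks of at least 10-fold enrichment alone, the shRNA7 median of summed tags was 4.93 over the 8 genes left, beside 4.81 over all genes.

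**Figure D4:**
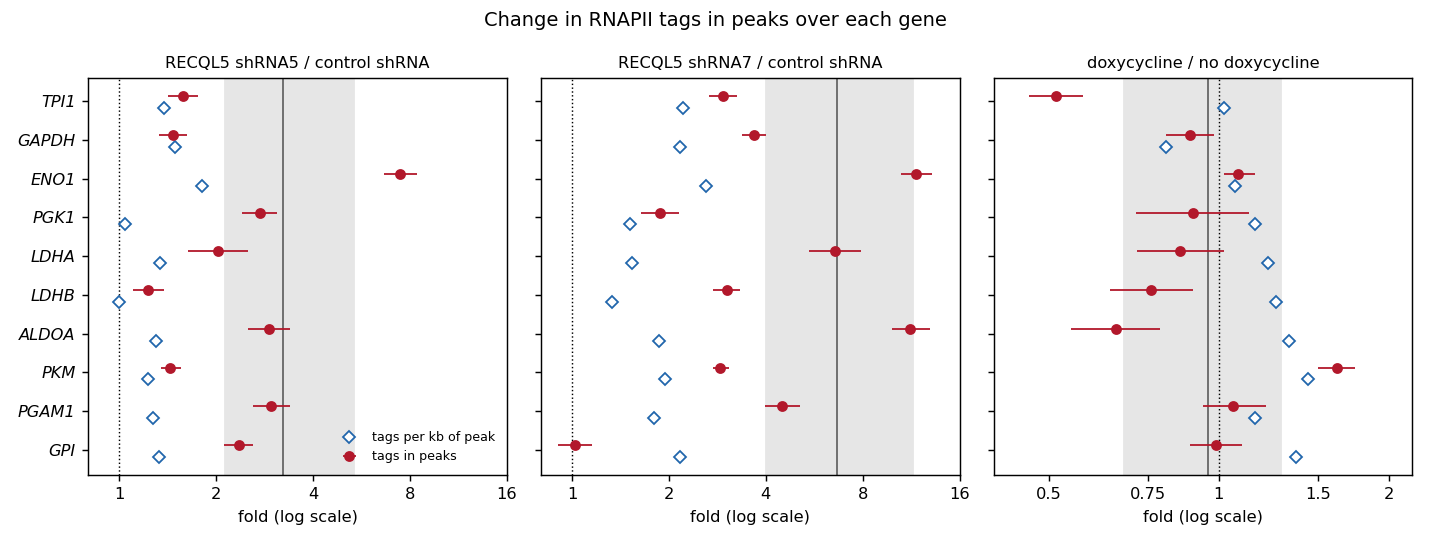
Fold in RNAPII tags for each gene upon shRNA5, upon shRNA7 and with doxycycline (log scale). Red points are summed tags with 95% counting intervals, open diamonds are tags per kb of peak, and the grey line and band are the median and interquartile range of the summed-tag fold over all genes with a peak in both lists. ENO1 lies above the band in both hairpin panels at 7.47 and 11.7, while TPI1 with doxycycline is at 0.515 by sum and 1.02 per kb.

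With doxycycline, the median fold of the sums was 0.895 over the 10 genes and 0.957 over 10608 genes. The fold was above 1 for 3 of 10 genes, ENO1, PKM and PGAM1, as for 4832 of the 10608. Sums at least 1.5 times lower were found for TPI1 and ALDOA, beside 24.2% of all genes. A fold of at least 1.5 was found for PKM alone, beside 16.2%. TPI1 fell from 970 to 500 tags, a fold of 0.515 (0.462 to 0.575), but per kb of transcript it stood at 71.7 without the drug and 71.1 with it. Both values are averages over the whole peak, which was 13341 bp long without the drug and 7032 bp with it. Where inside the peak the tags lay is not listed. ALDOA stood at 0.657 (0.548 to 0.786) and, per kb of transcript, at 35.1 and 18.1. PKM stood at 1.62 (1.5 to 1.74), and its tags per kb of transcript were 32.2 without doxycycline and 51 with it. Of the others, GAPDH was at 0.889, LDHA at 0.855, LDHB at 0.759, PGK1 at 0.901, GPI at 0.99, PGAM1 at 1.06 and ENO1 at 1.08. The direction for PGK1 turned on the reference transcript, where 130 tags without doxycycline stood against 145 with doxycycline. This gave a fold of 1.12, or 1.6 per kb of transcript. Per kb of peak the median fold was 1.19, beside 1.27 over all genes, so the direction of the group's median turned with the measure. By that measure 9 of the 10 genes were above 1, beside 85.2% of all genes.

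Of 31 other genes of the pathway (hexokinases, phosphofructokinases, isozymes of the 10 enzymes, and glucose and lactate transporters), 9 had a peak in the control list, against 18 upon shRNA5 and 18 with shRNA7, and 21 without and 19 with doxycycline. A TSS peak was found for 5, 14, 14, 17 and 15 of them. In the same order, the share of all protein-coding genes with a peak was 22.7%, 52.6%, 60.6%, 64.2% and 53.7%. For a TSS peak it was 16.0%, 42.0%, 50.1%, 54.3% and 45.8%. The control peaks belonged to ENO3 (736 tags), PGAM2 (317), the lactate exporter SLC16A3 (241), ADPGK (143), the glucose transporters SLC2A1 (83) and SLC2A3 (77), BPGM (77), ALDOC (72) and PFKM (60). ENO3, the muscle enolase, had the highest sum of the 31 in every list, from 478 tags without doxycycline to 3008 upon shRNA7. Its strongest peak covered the start of PFN1 in all 5 lists and the start of ENO3 itself upon shRNA7 alone, so it cannot be read as RNAPII on ENO3. The control peak counted for PFKM likewise covered the start of SENP1 and not that of PFKM. Every peak counted for PGAM2 also overlapped the span of DBNL, and its peaks upon shRNA5 and shRNA7 overlapped that of POLM as well. RNAPII of these genes cannot be told apart there.

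No list had a peak on HKDC1, PFKFB1, PGK2, PGAM4, PKLR (the liver and red cell pyruvate kinase), LDHC (the testis lactate dehydrogenase) or LDHAL6B. Among the 31 genes, tags in peaks had a median fold of 3.43 upon shRNA5 (9 genes), 5.01 upon shRNA7 (8 genes) and 1.05 with doxycycline (18 genes). Over all genes with a peak in both lists the medians were 3.23, 6.64 and 0.957. The medians of the 31 take in peaks over neighbouring genes, such as those counted for ENO3 and PFKM. For ALDOC, the only shRNA7 peak covered the start of PIGS and not its own. Upon shRNA7, 10 of the 31 genes had a peak and lacked one in the control list. The share of all genes that did so was not computed, while 22.7% had a peak in the control list and 60.6% upon shRNA7. SLC16A3 had no peak upon shRNA7. The 241 tags counted for it in the control list and the 1314 upon shRNA5 lay in peaks over the span of CSNK1D as well. None of these peaks covered the start of SLC16A3, so they cannot be read as RNAPII on SLC16A3. For GAPDH and its kin, processed pseudogenes with near-identical sequence could take or give reads of this length. Of 104 annotated pseudogenes of the 10 genes, 65 of them of GAPDH, 1 had a peak in the control list and at most 3 in any list. The strongest in every list lay on TPI1P2, with 107 to 312 tags, within 500 bp of a protein-coding gene.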

How the data were processed

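RNAPII ChIP-seq libraries of 36-base single reads were made by the authors from formaldehyde-fixed HEK293 cells, with an antibody to RNAPII and 1 library per group. The authors aligned reads to hg19 with Bowtie 0.12.7 after base calling with CASAVA 1.8, and called peaks with MACS 1.4.2 in each RNAPII library against IgG. The deposited lists give for each peak a count of tags, which was not normalised, and a significance score, which is 10 times the −log10 of the authors' p-value. They also give the fold enrichment, the authors' ratio of the peak over local background, and the authors' false discovery rate in percent. Bowtie was run with its best option, and the authors removed reads in blacklisted regions of poor mappability. Whether reads matching several places equally well were kept is not given in the sources used here.

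Peaks were joined by overlap to GENCODE 44 genes lifted to GRCh37, with Python 3.11.15, pandas 2.3.3, numpy 2.4.6 and scipy 1.17.1. All peaks ended within the GRCh37 chromosomes. Each gene had 1 reference transcript, the MANE Select one for the 10 genes. The overlap measures were tested on simulated peaks with known answers. No test was made and no p-value is given, since every group had a single library. Folds carry exact binomial counting intervals at 95%, which treat tags as independent molecules. The peak lists hold tags in peaks only, 842310 to 6698771 per list, and the depth of the libraries is not in them. All 10 genes are named. Other pathway genes are named where they had a control peak, the highest sum of a list or no peak in any list, while SENP1, PFN1 and the other neighbours were named after their peaks were seen. The 10 genes and the list of 31 were chosen with earlier results of these data known. The sequence before the start of 1 of the 10 genes is not reported here. Alternatives covered peak thresholds, the span used, tag sums and the promoter window.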

Additional observations from a re-analysis of the deposited data

How the results depend on the processing

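Of 141 recomputed values, 112 kept their direction and stayed within 1.5 times the count or within the counting interval of the median, 28 moved and 1 turned its direction. With stricter thresholds or other spans, 8 to 10 of the genes had a peak in each list, the 8 being control counts, without PGK1 and LDHA at a score of at least 100 and without LDHA and GPI at fold enrichment of at least 10. With fold enrichment of at least 10, the median fold was 1.52 upon shRNA5, 4.93 upon shRNA7 and 0.67 with doxycycline, 3 genes were at 2-fold upon shRNA5 and 5 were at least 1.5 times lower with doxycycline. With summits inside the span, the shRNA5 median was 1.54 and 1 gene was at 2-fold. With tags in proportion to length, the medians were 1.61 upon shRNA5 and 2.8 upon shRNA7, 3 genes were at 2-fold upon shRNA5 and 0 were lower with doxycycline. With tags per kb of peak, the medians were 1.31, 1.9 and 1.19, the last turning from 0.895. By this measure 0 genes were at 2-fold upon shRNA5 and 4 upon shRNA7, and 0 were lower and 0 higher with doxycycline. Without widening, 1 gene was lower with doxycycline. On the reference transcript, an alternative chosen after seeing the data, the shRNA5 median was 1.76 and 1 gene was lower with doxycycline. With at least 80% of the span required, 2 genes were covered in the control list. With 50 bases to each side of the RefSeq start, ACGTG was found in 1 gene, CACGTG in 0, GGGCGG in 3, CCAAT in 0 and TATAAA in 0. At the reference start, also chosen after seeing the data, CACGTG was found in 1 and TATAAA in 2. The cause of these shifts was not tested. No paired analysis was possible because there was 1 library per group, and no replicate could be left out. A site below the threshold is not listed, so an absent control peak is not an absence of RNAPII.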

Other observations

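Some peaks inside the genes had their summits at nearly the same place in separate libraries. In LDHB, a gene-body summit lay 8756 bp from the TSS in the control list, 8757 bp upon shRNA5 and 8737 bp with doxycycline, in peaks of 71, 144 and 18 tags. In GPI, a summit lay at 6200 bp in the control list and at 6182 bp upon shRNA5, with 161 and 340 tags. In LDHA, the summit of the peak behind the start lay at 1998 bp in the control list and 1968 bp upon shRNA5. These positions were picked after the values were seen, and how often summits recur over all genes was not tested.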
